A study of Mus musculus with 9 samples.

Results

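The genes described here are 8 feedback and target genes of STAT signalling, Socs1, Socs2, Socs3, Cish, Pim1, Pim2, Pim3 and Bcl3, taken by symbol from a table of 23366 genes, in which all 8 were found. The libraries came from CD8+ T cells that infiltrated B16F10 tumours, a transplantable melanoma line, grown in C57BL/6 mice. They formed 1 comparison, of 5 libraries from mice labelled WT (genotype wild type) with 4 libraries from mice labelled IL27ra KO, which lack the receptor chain that binds interleukin 27. The labels give no age, no treatment beyond the tumour, no description of the targeted allele and no statement on whether the receptor was missing from T cells alone or from the whole mouse. About 2000 cells were lysed per library on average, and the values are FPKM, a length- and depth-scaled level, with TMM scaling between libraries.

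Interleukin 27 signals through Il27ra and the shared chain gp130, which activate JAK kinases and STAT transcription factors, STAT3 among them. STAT proteins switch on their own brakes: Socs1, Socs2, Socs3 and Cish encode small proteins with an SH2 domain and a SOCS box that block JAK kinases or cytokine receptors or mark them for degradation. The PIM kinases, which need no activating partner and act as soon as they are made, and Bcl3, a nuclear partner of NF-kappaB subunits, are STAT-induced genes linked to growth and survival of lymphocytes.

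Il27ra, the targeted gene, checks the labels. It had 25.7, 5.14, 15.2, 14.4 and 15.8 FPKM in WT replicates 1 to 5 and 4.09, 6.50, 5.62 and 7.80 FPKM in IL27ra KO replicates 1 to 4. The library labelled WT replicate 2 therefore lay inside the IL27ra KO range, and the differences of the members are given below with and without it. The difference on the log2(FPKM + 1) scale was -1.10 (SE 0.34), short of the threshold at an adjusted p of 0.0996 in limma; the two-sided exact permutation p over the 9 libraries was 0.0397. Without the library labelled WT replicate 2 it was -1.42 (limma, adjusted p = 0.00349). Markers of the labelled cell type were present in every library, with the 13 CD8 T cell identity genes summing to 1085 to 1723 FPKM per WT library and 499 to 1310 FPKM per IL27ra KO library. The 21 macrophage and monocyte markers summed to 94.6 to 485 FPKM per WT library and 599 to 2040 FPKM per IL27ra KO library, none at 0 in an IL27ra KO library, and all 20 that were tested were higher in IL27ra KO. Dendritic cell markers, 10 in all, summed to 19.2 to 434 and 374 to 1755 FPKM. Cd74, H2-Ab1 and H2-Aa had the largest means, at 65.1, 54.3 and 40.2 FPKM in WT and 515, 421 and 291 FPKM in IL27ra KO. Of 6 tested, 5 were higher in IL27ra KO and Zbtb46 did not pass (1.38 and 1.02 FPKM). Xcr1, Clec9a and Flt3 averaged 0.95, 0.036 and 0.058 FPKM in WT and 0.71, 0.045 and 0.215 FPKM in IL27ra KO. Batf3 averaged 0.068 and 1.31 FPKM, and these low genes were not tested. The 7 melanoma markers summed to 354 to 1162 and 541 to 1274 FPKM. Neutrophil, B cell, NK cell, CD4 T cell and stromal markers summed to at most 11.9 FPKM in any library. The spacing of low values implied about 1730000 to 4090000 fragments per library on the TMM scale, with WT replicate 3 lowest. Rn45s, a ribosomal RNA gene, made up 53.8% and 50.8% of summed FPKM in WT replicates 3 and 4. In the other libraries it made up 23.9% to 30.0%. In bulk RNA, fewer cells of a type and less RNA per cell cannot be told apart.

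None of the 8 genes passed the test between IL27ra KO and WT libraries, though several differed in level. Socs3 and Bcl3 had higher values in all 4 IL27ra KO libraries than in any WT library, Pim3 was higher on average, and Cish was lower in 3 of 4 IL27ra KO libraries than in any WT library. Socs1, Pim1 and Pim2 overlapped widely, and Socs2 was too low to be tested. Of the 10374 genes averaging 1 FPKM or more, 440 passed (limma, adjusted p under 0.05), which is 4.24%, with 3.13% higher and 1.11% lower in IL27ra KO. Of the 7 members tested 0 passed. At an unadjusted p under 0.05 there were 4 of the 7 (Socs3, Bcl3 and Pim3 higher, Cish lower), beside 15.1% of all genes tested (9.33% higher, 5.74% lower). Separate ranges were seen for 2 of the 7, both higher in IL27ra KO, beside 6.73% of all genes tested (4.26% higher, 2.47% lower). The median log2 difference of the 7 was 0.18, beside 0.02 for all genes tested.

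**Figure D1:**
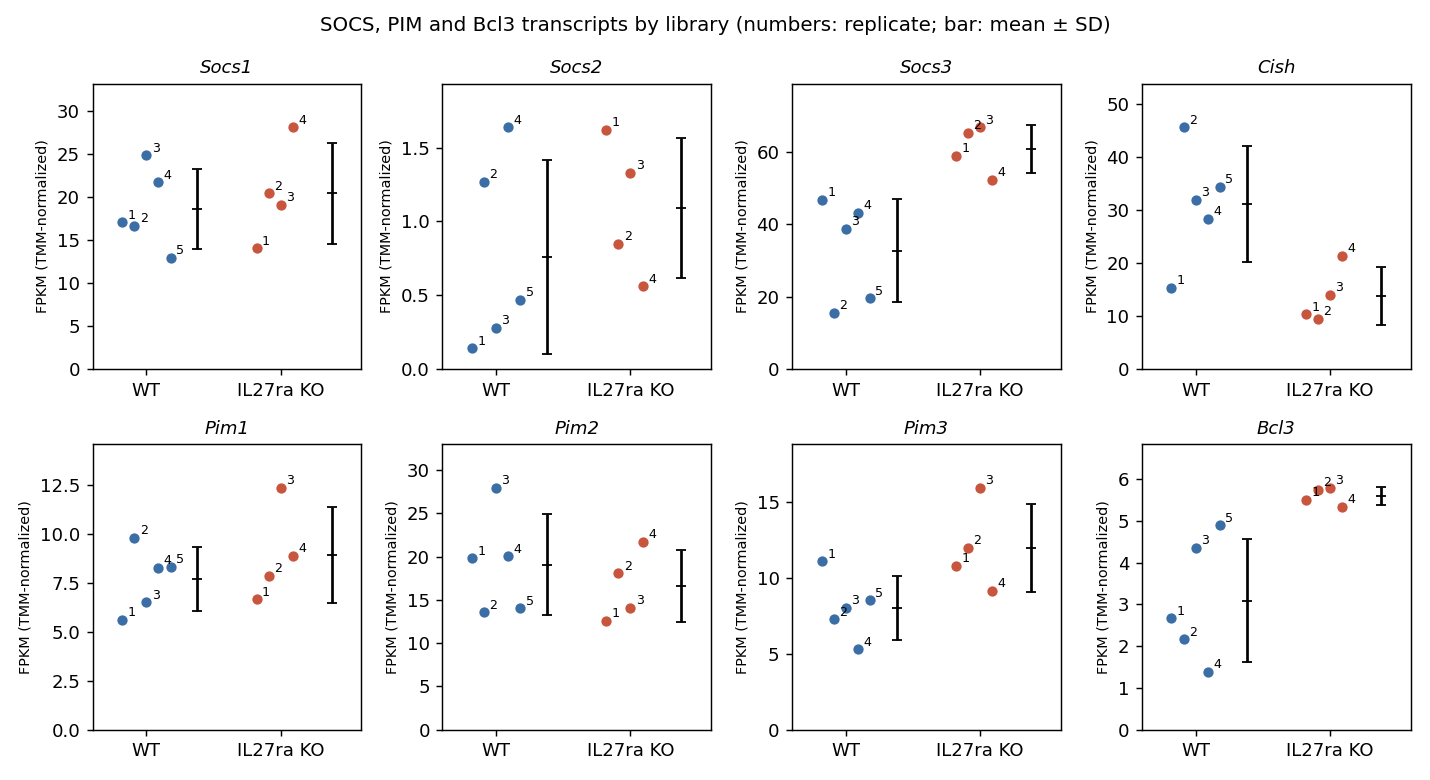
FPKM (vertical axis, linear, from 0) of each of the 8 genes in the 5 WT and 4 IL27ra KO libraries; each point is a library with its replicate number, and bars are mean ± SD. All 4 IL27ra KO points of Socs3 (52.3 to 66.9 FPKM) and of Bcl3 (5.33 to 5.79 FPKM) lie above the WT points, and 3 of 4 IL27ra KO points of Cish lie below them.

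Socs3 encodes the SOCS protein that binds gp130 and the JAK kinases next to it, and it is the main brake on STAT3 signals from cytokines of the interleukin 6 family. It had 46.7, 15.5, 38.8, 43.2 and 19.5 FPKM in WT replicates 1 to 5 and 58.9, 65.2, 66.9 and 52.3 FPKM in IL27ra KO replicates 1 to 4. The libraries labelled WT replicates 2 and 5 were the low ones, and the groups did not overlap. The means were 32.7 ± 14.3 FPKM (SD, n = 5) and 60.8 ± 6.63 FPKM (SD, n = 4), so the IL27ra KO mean was 1.86 times the WT mean. The log2 difference was 0.99 (SE 0.31, 95% interval 0.33 to 1.65), which did not reach the threshold in limma (adjusted p = 0.10). Without the library labelled WT replicate 2 it was 0.77 (adjusted p = 0.105). WT values spread 3.01-fold from lowest to highest, IL27ra KO values 1.28-fold.

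Cish encodes the SOCS protein CIS, a STAT5-induced inhibitor of interleukin 2 receptor signals that also restrains T cell receptor signals in CD8 T cells. It had 15.4, 45.7, 31.96, 28.4 and 34.4 FPKM in WT replicates 1 to 5 and 10.3, 9.48, 14.0 and 21.3 FPKM in IL27ra KO replicates 1 to 4. WT replicate 1 was the only WT library inside the IL27ra KO range, and IL27ra KO replicate 4 was the only one of its group above it. The means were 31.1 ± 10.9 and 13.8 ± 5.40 FPKM (SD, n = 5 and n = 4), the WT mean being 2.26 times the IL27ra KO mean. The log2 difference was -1.11 (SE 0.30, 95% interval -1.76 to -0.46) and just missed the threshold (limma, adjusted p = 0.0573). Without WT replicate 1 it was -1.33 and passed (adjusted p = 0.0168), and without IL27ra KO replicate 4 it was -1.33 and passed (adjusted p = 0.0199). Without the library labelled WT replicate 2 it was -0.96 and did not pass (adjusted p = 0.0849). Of the 9 fits with 1 library left out only 2 passed for Cish, those without WT replicate 1 or IL27ra KO replicate 4. In the others the limma adjusted p ran up to 0.209.

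Socs3 and Cish were also compared within each library. Socs3 minus Cish, on the log2(FPKM + 1) scale, was 0.02 ± 1.19 in WT (SD, n = 5) and 2.12 ± 0.61 in IL27ra KO (SD, n = 4), ranging from -1.50 to 1.55 and from 1.26 to 2.66. The change of 2.10 had a two-sided exact permutation p of 0.0238, and 0.0952 after Benjamini-Hochberg adjustment over the 9 pairs of paralogs compared, so it did not pass. Without the library labelled WT replicate 2 the change was 1.72 (exact permutation, adjusted p = 0.171). In WT the order of the 5 libraries by Socs3 was the exact reverse of their order by Cish, a pattern noticed after the values were seen. In IL27ra KO replicate 4 had the lowest Socs3 and the highest Cish, and the other libraries did not keep the reverse order. With 5 and 4 libraries per group no correlation within a group was computed. Over all 9 libraries, the Pearson correlation of deviations from the group means was -0.69 for Socs3 and Cish. Among the members it was larger in size for Socs1 and Pim2 (0.89). Both describe values that share library, depth and scaling.

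**Figure D2:**
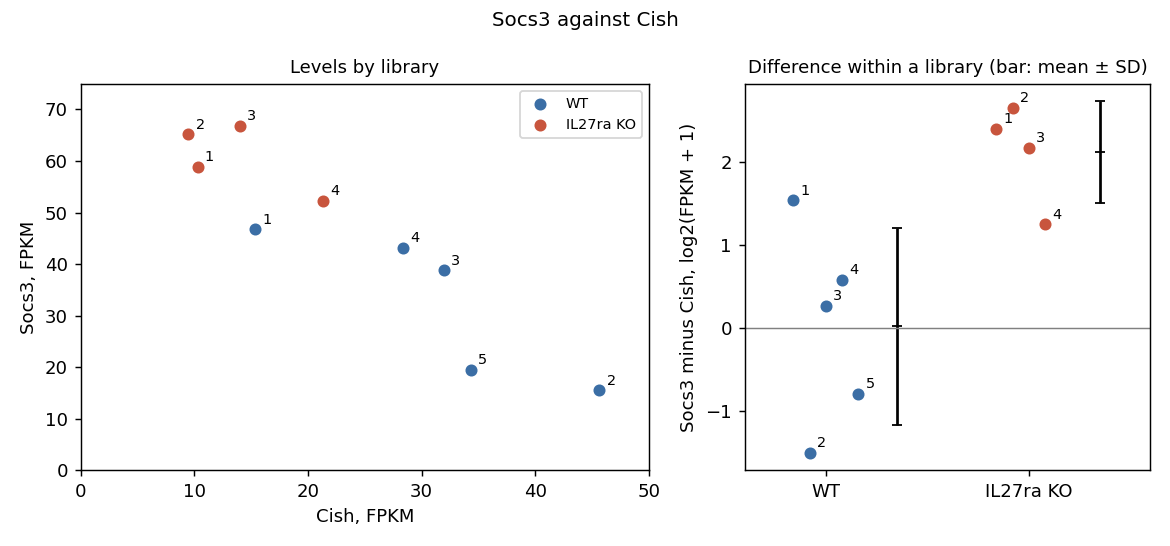
Left, Socs3 (vertical axis, FPKM) against Cish (horizontal axis, FPKM), 1 point per library with its replicate number; right, Socs3 minus Cish within each library on the log2(FPKM + 1) scale, with mean ± SD. WT values of the right panel run from -1.50 to 1.55 and IL27ra KO values from 1.26 to 2.66, so the groups overlap at WT replicate 1 and IL27ra KO replicate 4.

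The promoter windows of Cish and Socs3 are printed because they alone among the members held a match to TTCNNNGAA, the palindromic site that STAT dimers bind. Windows run from 250 bases before to 50 bases after a RefSeq start site on build GRCm38.p6, and matches are in capitals. A window was found for 7 of the 8 members, with 2 for Pim1 and none for Socs2. The motif was searched on both strands, which read alike for a palindrome. It occurred at least once in 8.3% and at least 2 times in 0.457% of 32851 mouse windows. The Cish window is chr9:107296409-107296708 on the plus strand and holds 2 matches, TTCCTGGAA at the start site and TTCTTGGAA from 11 bases after it. The Socs3 window is chr11:117969317-117969616 on the minus strand and holds TTCTTAGAA from 154 bases before its start site. These are matches of letters, not measured binding sites. The sequences, 5′ to 3′ on the gene's strand, are as follows.
Cish: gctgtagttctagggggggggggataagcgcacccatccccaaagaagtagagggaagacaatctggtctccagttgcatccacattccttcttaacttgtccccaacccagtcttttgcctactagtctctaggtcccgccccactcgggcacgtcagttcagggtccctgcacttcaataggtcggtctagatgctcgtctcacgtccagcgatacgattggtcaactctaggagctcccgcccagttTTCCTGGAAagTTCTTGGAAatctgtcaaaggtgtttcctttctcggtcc
Socs3: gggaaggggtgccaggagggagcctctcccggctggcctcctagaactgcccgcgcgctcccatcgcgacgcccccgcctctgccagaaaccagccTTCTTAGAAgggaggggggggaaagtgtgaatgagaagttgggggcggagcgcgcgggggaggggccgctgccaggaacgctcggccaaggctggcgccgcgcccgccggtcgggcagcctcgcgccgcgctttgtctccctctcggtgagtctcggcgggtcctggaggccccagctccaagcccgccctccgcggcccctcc

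Socs1 and Socs2 completed the SOCS members. Socs1 encodes the direct JAK inhibitor that limits interferon signals. It had 17.1, 16.6, 24.8, 21.7 and 12.9 FPKM in WT replicates 1 to 5 and 14.0, 20.4, 19.0 and 28.1 FPKM in IL27ra KO replicates 1 to 4, with 4 of 5 WT libraries inside the IL27ra KO range. The means, 18.6 ± 4.65 and 20.4 ± 5.83 FPKM (SD, n = 5 and n = 4), differed by 0.12 log2 units (95% interval -0.39 to 0.63; limma, adjusted p = 0.883). IL27ra KO replicate 4 was the highest of the 9 libraries, and without it the difference was -0.04. Leaving out the library labelled WT replicate 2 gave 0.09 (limma, adjusted p = 0.8995). Socs1 minus Cish was -0.67 ± 0.68 in WT and 0.56 ± 0.31 in IL27ra KO, with no overlap of the groups. Its change of 1.23 had a two-sided exact permutation p of 0.0159 (adjusted p = 0.0952), and without the library labelled WT replicate 2 it was 1.04 (exact permutation, adjusted p = 0.171). Socs2, a growth hormone and STAT5-induced inhibitor, averaged 0.76 ± 0.658 FPKM over the WT libraries and 1.09 ± 0.475 FPKM over the IL27ra KO libraries, with 0.14 to 1.64 and 0.56 to 1.62 FPKM per library. At its longest annotated transcript of 4.24 kb and the estimated depths, these values correspond to about 2.0 to 26.3 fragments. Its mean over all libraries, 0.907 FPKM, was under the filter. With no filter its log2 difference was 0.30 (SE 0.28; limma, adjusted p = 0.743).

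The PIM kinases are serine/threonine kinases without a regulatory domain, whose activity follows the amount of protein made. Pim1, a classic STAT3 and STAT5 target, had 5.60, 9.80, 6.51, 8.27 and 8.30 FPKM in WT replicates 1 to 5 and 6.65, 7.85, 12.3 and 8.87 FPKM in IL27ra KO replicates 1 to 4. Its means of 7.70 ± 1.65 and 8.93 ± 2.45 FPKM (SD, n = 5 and n = 4) differed by 0.18 log2 units (95% interval -0.28 to 0.64; limma, adjusted p = 0.776). The groups overlapped, with IL27ra KO replicate 3 alone above all WT libraries. Pim2, the most abundant of the family here and one linked to lymphocyte survival, had 19.8, 13.6, 28.0, 20.1 and 14.0 FPKM in the WT libraries, in the same order, and 12.6, 18.1, 14.1 and 21.7 FPKM in the IL27ra KO libraries. Its means of 19.1 ± 5.83 and 16.6 ± 4.13 FPKM differed by -0.17 log2 units (95% interval -0.69 to 0.35; adjusted p = 0.819), and 4 of 5 WT libraries lay inside the IL27ra KO range. Pim3, the third kinase, had 11.1, 7.28, 8.02, 5.29 and 8.52 FPKM in the WT libraries and 10.8, 12.0, 15.9 and 9.16 FPKM in the IL27ra KO libraries. Only WT replicate 1 lay inside the IL27ra KO range. The means were 8.04 ± 2.11 and 12.0 ± 2.88 FPKM, a log2 difference of 0.53 (95% interval 0.05 to 1.00) that did not pass (limma, adjusted p = 0.267). For Pim1, Pim2 and Pim3 the differences after leaving out the library labelled WT replicate 2 were 0.27, -0.28 and 0.50 (limma, adjusted p = 0.571, 0.598 and 0.279).

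Differences among the kinases were not resolved. Pim2 minus Pim3 went from 1.14 ± 0.53 in WT to 0.44 ± 0.57 in IL27ra KO, a change of -0.70 (SD, n = 5 and n = 4; two-sided exact permutation p = 0.111, adjusted p = 0.20). Pim1 minus Pim2 and Pim1 minus Pim3 changed by 0.35 and -0.35 (adjusted exact permutation p = 0.420 and 0.378). None of the 9 pairs of paralogs passed. The smallest p this test allows is 0.00794, or 0.0714 for a single pair after adjustment over 9. A pair could therefore pass only if at least 2 pairs were low together. The comparison therefore does not settle whether members of a family differed in their change.

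Bcl3 encodes an atypical IkappaB protein that works in the nucleus with the NF-kappaB p50 and p52 subunits and supports survival of activated T cells. It had 2.67, 2.16, 4.35, 1.39 and 4.89 FPKM in WT replicates 1 to 5 and 5.50, 5.74, 5.79 and 5.33 FPKM in IL27ra KO replicates 1 to 4. The IL27ra KO libraries were close together, with a 1.09-fold range against 3.52-fold in WT, and none overlapped WT, the nearest WT library being replicate 5. At the longest annotated transcript these values correspond to about 5.9 to 37.0 fragments per WT library and 26.9 to 38.9 per IL27ra KO library. With so few fragments the spread within either group cannot be read closely. The means were 3.09 ± 1.48 FPKM (SD, n = 5) and 5.59 ± 0.215 FPKM (SD, n = 4). The log2 difference of 0.77 (SE 0.25, 95% interval 0.22 to 1.31) did not pass (limma, adjusted p = 0.130). Without the library labelled WT replicate 2 it was 0.69 (adjusted p = 0.183).

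**Figure D3:**
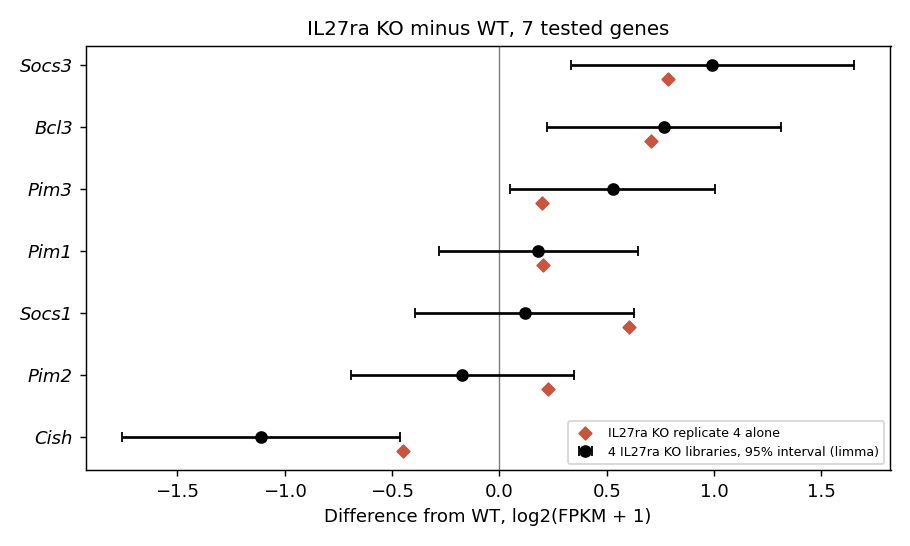
Difference of IL27ra KO from WT on the log2(FPKM + 1) scale (horizontal axis) for the 7 tested genes; circles with bars are the limma estimate with its 95% interval, and diamonds are IL27ra KO replicate 4 alone minus the WT mean. The intervals of Socs3, Bcl3, Pim3 and Cish exclude 0 before adjustment over all genes, and those of Socs1, Pim1 and Pim2 include it.

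Macrophage marker levels were apart between the groups beside these values, while CD8 T cell and melanoma marker levels overlapped. The mean log2(FPKM + 1) level of the macrophage markers was 1.32, 2.97, 1.39, 2.18 and 2.68 in WT replicates 1 to 5 and 5.16, 4.92, 5.35 and 3.81 in IL27ra KO replicates 1 to 4. That of the CD8 T cell identity genes was 6.16, 6.76, 6.23, 6.11 and 6.40 in WT and 5.08, 5.55, 5.35 and 6.38 in IL27ra KO. The 7 melanoma markers summed to 977, 354, 842, 1162 and 466 FPKM in WT and 1219, 1274, 1120 and 541 FPKM in IL27ra KO. The libraries lowest in Socs3 within each group (those labelled WT replicates 2 and 5, and IL27ra KO replicate 4) were also the lowest in melanoma markers. The libraries labelled WT replicates 2 and 5 were also the highest of WT in macrophage and in CD8 T cell level. These matches were noticed after the values were seen and were not tested. IL27ra KO replicate 4 also had the lowest macrophage level of its group and a CD8 T cell level inside the WT range. Its difference from the WT mean was 0.78 for Socs3, 0.71 for Bcl3 and -0.45 for Cish, beside 0.99, 0.77 and -1.11 over all 4 libraries. For Socs1, Pim1, Pim2 and Pim3 it was 0.60, 0.20, 0.22 and 0.20. Myeloid cells also make several of these transcripts, and the part of these cells in the differences was not tested. When libraries were scaled to the same CD8 T cell identity level, which moved the median of all genes to 0.65, Socs3, Bcl3 and Pim3 passed at 1.73, 1.38 and 1.22 (limma, adjusted p = 0.00815, 0.0118 and 0.0279), or 1.07, 0.72 and 0.57 above that median. Cish was then at -0.39 (adjusted p = 0.292), or -1.05 relative to the median. Under this scaling 1688 of 10574 genes tested passed, 1638 of them higher. With weights for library quality Cish and Socs3 passed at -1.08 and 0.88 (limma, adjusted p = 0.0139 and 0.0251), beside 974 of 10374 genes tested. With the macrophage marker level in the fit no member passed in limma. Socs3 was then at 2.15 (SE 0.63, adjusted p = 0.233) and Cish at -1.48 (SE 0.70, adjusted p = 0.416). Socs1 was at 1.06 (SE 0.47, adjusted p = 0.401) and Bcl3 at 0.88 (SE 0.60, adjusted p = 0.566). The macrophage level did not overlap between the groups, so this fit cannot separate it from the group difference. Without that term the SE was 0.31 for Socs3 and 0.30 for Cish.

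The order of the members by mean level was not the same in both groups. In WT the means ran from Socs3 (32.7 FPKM) over Cish (31.1), Pim2 (19.1), Socs1 (18.6), Pim3 (8.04), Pim1 (7.70) and Bcl3 (3.09) to Socs2 (0.76). The ranges of neighbours in this order were apart only between Socs1 and Pim3 and between Pim1 and Bcl3. In IL27ra KO Socs3 (60.8 FPKM) stood apart from Socs1 (20.4), followed by Pim2 (16.6), Cish (13.8), Pim3 (12.0), Pim1 (8.93), Bcl3 (5.59) and Socs2 (1.09). In this group the ranges of neighbours overlapped from Socs1 to Pim1, and Cish was above Pim3 in only 1 of 4 libraries. Cish, ahead of Pim2 in 4 of 5 WT libraries, was behind Pim2 in 4 of 4 IL27ra KO libraries, while Pim2 and Socs1 exchanged places. The margin was small in IL27ra KO replicates 3 and 4, with Cish at 14.01 and 21.31 FPKM and Pim2 at 14.07 and 21.72 FPKM. Among the 10374 genes tested, Socs3 was at the 93.7th percentile of mean FPKM and Bcl3 at the 38.7th.

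The rest of the pathway held both higher and lower genes. Of 135 other genes in 12 lists of ligands, receptors, kinases, STAT factors, inhibitors and targets, 115 were tested, with 11 higher, 8 lower and 96 not past the threshold, so 16.5% were called (9.57% higher, 6.96% lower) beside 4.24% of all genes tested (3.13% higher, 1.11% lower). The lists were chosen with earlier results known, and nothing is drawn from this share. Their median log2 difference was -0.06. Without the library labelled WT replicate 2 the calls were 15 higher and 9 lower, and the called pathway genes given with values below kept theirs. They dropped to 6 higher and 3 lower without IL27ra KO replicate 1 and to 6 higher and 5 lower without IL27ra KO replicate 3, and were 25 higher and 2 lower when libraries were scaled to the CD8 T cell identity genes. With the macrophage marker level in the fit 0 of these genes passed, but that level did not overlap between the groups and cannot be separated from them. The ligands of the receptor were near the detection limit: Il27 was listed at 0 in all 5 WT libraries and at 0 to 0.42 FPKM in IL27ra KO, and Ebi3, its partner chain, averaged 0.654 ± 0.565 and 1.58 ± 1.38 FPKM (limma, adjusted p = 0.550). Osm, a gp130 cytokine and STAT5 target that macrophages and activated T cells make, rose from 1.73 ± 0.878 to 13.8 ± 10.1 FPKM and was the 1 of 4 tested ligands to pass (log2 difference 2.31, limma, adjusted p = 0.00288).

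Of 21 receptor chains tested, 5 were higher, 1 was lower and 15 did not pass. The higher ones were Csf2ra (log2 difference 2.19) and Csf2rb (2.14), the chains of the GM-CSF receptor, Il6ra (1.36), the interleukin 6 receptor, with limma adjusted p of 0.00123, 0.00287 and 0.00450, and further Lifr and Ifngr2. Il2rb, the interleukin 2 and 15 receptor chain whose signals drive STAT5 and Cish, fell from 169 ± 34.7 to 68.3 ± 24.05 FPKM (log2 difference -1.33, limma, adjusted p = 0.00719). Scaled to the CD8 T cell identity genes, or with the replicate number as a block in the fit, Il2rb did not pass. Il6st, which encodes gp130, had 9.35 ± 4.37 and 10.05 ± 1.83 FPKM (adjusted p = 0.843).

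None of the 4 JAK kinases passed, and Jak1 averaged 63.2 ± 12.3 and 61.4 ± 16.7 FPKM in WT and IL27ra KO (limma, adjusted p = 0.946). Among 7 STAT factors 1 was lower and 6 did not pass. Stat3 had 56.5, 74.1, 58.0, 38.1 and 75.2 FPKM in WT replicates 1 to 5 and 23.3, 27.5, 28.5 and 29.6 FPKM in IL27ra KO replicates 1 to 4. It fell from a mean of 60.4 ± 15.2 to 27.2 ± 2.74 FPKM with no overlap (log2 difference -1.09, SE 0.22, adjusted p = 0.0116). Stat3 missed the threshold when IL27ra KO replicate 1 was left out (limma, adjusted p = 0.0572). It also did so under the CD8 T cell scaling and with the replicate number as a block. Stat5a had 11.01 ± 2.00 and 8.49 ± 0.791 FPKM (limma, adjusted p = 0.453) and Stat5b 10.97 ± 3.48 and 9.81 ± 0.934 FPKM (adjusted p = 0.929).

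Other brakes on the pathway held 1 call, where 4.24% of all genes tested were called. None of Socs4, Socs5, Socs6 and Socs7 passed, with log2 differences of -0.34 to 0.35, nor did any of the 4 partners that the SOCS box recruits, the elongins Tceb1 and Tceb2, Cul5 and Rnf7. Of 12 phosphatases, PIAS proteins and adaptors, Cblb, a ubiquitin ligase that restrains T cell activation, fell from 43.6 ± 12.3 to 18.0 ± 6.94 FPKM (log2 difference -1.25; limma, adjusted p = 0.0170), and 11 did not pass. Cblb missed the threshold when any of IL27ra KO replicates 1, 2 and 3 was left out (limma, adjusted p up to 0.0795). It also did so under scaling to the same total without Rn45s or by the CD8 T cell genes, and with the replicate number as a block.

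The target lists were split in direction. Of 14 STAT3 targets tested, 3 were higher (Zfp36, Fos and Maf), 2 were lower (Prdm1 and Tnfrsf1b) and 9 did not pass, with a median log2 difference of 0.37. Zfp36, which encodes the mRNA decay factor tristetraprolin, rose from 32.2 ± 4.30 to 72.4 ± 10.1 FPKM (log2 difference 1.15, limma, adjusted p = 0.00314), and Fos, an immediate-early AP-1 factor, from 80.5 ± 16.6 to 178 ± 34.2 FPKM (1.14, adjusted p = 0.0110). Fos missed the threshold when IL27ra KO replicate 1 or 3 was left out (limma, adjusted p up to 0.0639). Prdm1 missed it without IL27ra KO replicate 1 (limma, adjusted p = 0.0710) and under the CD8 T cell scaling. With the replicate number as a block in the fit neither Fos nor Prdm1 passed. Of 12 STAT5 targets, 3 were lower (Il2rb, Tnfrsf4 and Tnfrsf9), Osm was higher and 8 did not pass, with a median of -0.20. Il2ra, the inducible interleukin 2 receptor chain, averaged 3.70 and 1.76 FPKM in WT and IL27ra KO and did not pass (limma, adjusted p = 0.110).

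None of 10 NF-kappaB subunits and inhibitors passed, the largest difference being 0.47 and the lowest -0.42. Nfkb1 and Nfkb2, which encode the partners of the Bcl3 protein, had 6.10 ± 1.58 and 5.53 ± 1.10 FPKM and 17.2 ± 4.17 and 12.4 ± 1.65 FPKM, with limma adjusted p of 0.883 and 0.367. Of 12 genes for PIM substrates 0 passed in either direction. Cdkn1a, the cell cycle inhibitor p21, differed most, at 20.2 ± 8.42 FPKM for WT against 42.3 ± 16.4 FPKM (log2 difference 1.05, adjusted p = 0.110).

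Genes whose library-to-library pattern was most like each member were sought among 5722 genes of at least 5 FPKM (the member itself left out), by the Pearson correlation of deviations from the group means over the 9 libraries. The closest to Socs3 were St6gal1, Tor1aip2 and Usp22 (0.97, 0.96 and 0.96), and the closest to Cish were Bscl2, H2-T22 and Smc2 (0.93, 0.92 and 0.91). Pim2 was nearest to D930015E06Rik, Dennd2d and Ciz1 (0.99, 0.98 and 0.98), Socs1 to Sesn3, Epb4.1 and Prr14 (0.97, 0.96 and 0.96), and Bcl3 to Ints4, Far1 and M6pr (0.95, 0.88 and 0.88). Pim1 was nearest to Sdf2l1, Glrx3 and Rnpep (0.93, 0.92 and 0.89) and Pim3 to Map1lc3a, Hsp90b1 and Ano10 (0.93, 0.93 and 0.92). None of these 21 genes passed between the groups. The values share library, depth and scaling and are the highest of all candidates, so they are descriptions only.

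**Figure D4:**
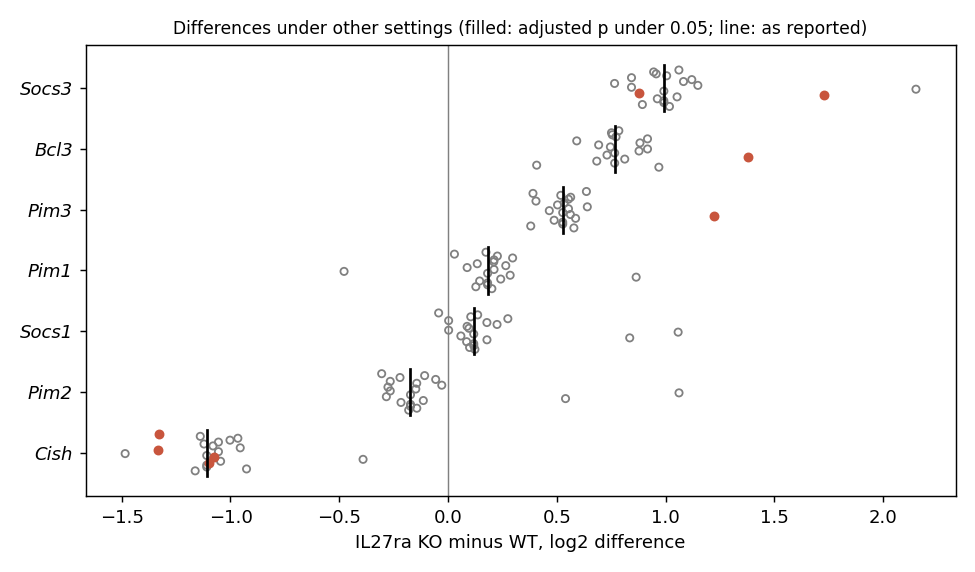
Log2 difference of IL27ra KO from WT (horizontal axis) for the 7 tested genes under each other processing setting and with each library left out; filled points had an adjusted p under 0.05 and black lines are the reported values. Socs3, Bcl3 and Pim3 stayed above 0 and Cish below 0 at every setting drawn, while Socs1, Pim1 and Pim2 crossed 0 at some.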

How the data were processed

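The authors deposited 1 table of FPKM per gene, made with RSEM and scaled by TMM, per the labels. Per the submitters' processing notes, TopHat, RSEM, DESeq and the build mm9 were used, without versions or roles. Per the labels' protocols, lysates went through SPRI bead cleanup and an adapted SMART-Seq 2 protocol, in which PCR copies of a molecule cannot be told apart. The labels do not say that libraries came from separate animals, so p-values measure the spread between these libraries. RSEM divides fragments shared by similar genes among them, and the strand setting is not given in the sources used here.

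From these values log2(FPKM + 1) was computed for the 10374 genes averaging 1 FPKM or more and compared with limma 3.58.1 in R 4.3.3 (trended eBayes, Benjamini-Hochberg over all genes tested, threshold 0.05), as IL27ra KO minus WT. A fold on this scale understates the change of low genes. Il27ra and differences between paralogs were compared with two-sided exact permutation tests, whose smallest p is 0.00794. The deposited FPKM carry no counts. Depth was estimated from how near low values of 3696 genes with 1 transcript (lengths from GENCODE M21) lay to whole multiples, with 64.8% to 69.2% within 0.1. The values were TMM-scaled and full transcript lengths were used. The depths are therefore approximate and on the TMM scale, not counts of sequenced fragments. The members and lists were chosen with earlier results of these data known. Named genes are the members, Il27ra, a few fixed pathway genes, up to 4 called genes of each list by p and the 3 genes most like each member. Lifr, Ifngr2, Tnfrsf1b, Socs4 to Socs7, the SOCS box partners, Il2ra, Nfkb1, Nfkb2 and Cdkn1a were named after their values were seen. Alternatives were 2 pseudocounts, 2 filters, 3 scalings, weighted and robust fits, the macrophage marker level as a term, the replicate number as a block and each library left out; the last 3 were added for the pathway lists after seeing the data. One of the fixed pathway genes and 1 target list are not reported here. The fit was tested on simulated data with 200 changed genes. It recovered 43.5% of them at a change of 1 log2 unit and 96.5% at 2 units. A change of about 1 unit can therefore fail to pass. Promoter sequences are from RefSeq, GRCm38.p6.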

Additional observations from a re-analysis of the deposited data

How the results depend on the processing

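Directions of Socs3, Bcl3, Pim3 and Cish held in every alternative run, and the calls varied. Of 139 alternative values of the 7 tested members, 127 kept their side of the threshold and direction, 8 passed where the reported value did not, and 4 reversed: Socs1 to -0.043 without IL27ra KO replicate 4 (leave-one-out range -0.04 to 0.27), Pim1 to -0.48 and Pim2 to 1.06 in the fit that included the macrophage level, and Pim2 to 0.54 when scaled to the CD8 T cell identity genes. The number of members called went from 0 to 3 (Socs3, Pim3 and Bcl3, all higher) under the CD8 T cell scaling, to 2 (Socs3 higher, Cish lower) with weights for library quality, to 1 (Cish) with quantile normalization and to between 0 and 1 when 1 library was left out. It stayed at 0 in the other alternatives. Over all genes, 440 calls of 10374 tested became 219 of 5722 at a mean of at least 5 FPKM, where fewer genes were tested. Under the CD8 T cell scaling 1688 of 10574 were called (1638 higher, 50 lower). Of the same 10374 genes, 974 were called with weights, 273 with the replicate block and 7 with the macrophage covariate. The macrophage level did not overlap between the groups, so that fit cannot separate it from the group difference. With 1 library left out 227 to 639 genes were called, and the cause of these changes was not tested. The 19 calls among pathway genes became 0 with the macrophage covariate, 8 with the replicate block and 9 to 24 with 1 library left out, in alternatives chosen after seeing the data. Quantile normalization gave 291 higher and 167 lower of 10374 genes tested. Il27ra was at -1.42 and passed with weights, and ran from -1.42 to -0.88 with 1 library left out. It was at -0.44 (limma, adjusted p = 0.333) under the CD8 T cell scaling. With the macrophage covariate it reversed to 0.59 with a larger SE (0.61, against 0.34 as reported). Of the 9 pairs of paralogs 0 passed in any alternative (lowest adjusted exact permutation p = 0.0714). That says nothing of stability, since at least 6 or 4 pairs would have to be low together without a WT or an IL27ra KO library. The change of Socs1 minus Socs2, -0.18 as reported, reversed to 0.014 with a pseudocount of 5, to 0.12 under the CD8 T cell scaling and within a leave-one-out range of -0.47 to 0.10. Same-numbered libraries did not deviate together (correlations -0.15 to 0.00 for the 4 pairs), so the labels' numbers were not used as a pairing. With the replicate block no member passed, and Socs3, Cish and Bcl3 were at 0.84, -1.06 and 0.92 (limma, adjusted p = 0.262, 0.122 and 0.0945). Socs2 and Bcl3 rest on few fragments, about 2.0 to 26.3 and 5.9 to 38.9 per library.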
